A study of Mus musculus with 96 samples.

Results

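Gad1, Gad2, Slc32a1 and Abat, 4 of the 24054 genes of the count table, were followed by name in 96 single neurons of the mouse preoptic area, by the temperature class given in the labels and by which of the 4 reached 10 CPM in the same cell, CPM being a gene's counts scaled to a cell total of 1000000. Gad1 and Gad2 code for the 2 glutamate decarboxylases, which make the inhibitory transmitter GABA from glutamate. Slc32a1 codes for the vesicular GABA transporter, which loads GABA into synaptic vesicles. Abat codes for GABA transaminase, a mitochondrial enzyme that breaks GABA down. In the hypothalamus, neurons that release GABA lie among neurons that release glutamate, and the preoptic area is known for its part in the control of body temperature.

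The cells came from C57BL/6N mice aged 2 to 3 months, with no allele or agent named in the labels. Each neuron was recorded by whole-cell patch clamp, drawn into a glass pipette and made into a Smart-seq2 library, so a library holds what the pipette took up. The labels give 10 silent sensitive cells, 18 silent insensitive cells, 21 warm-sensitive cells, 5 cold-sensitive cells and 24 insensitive cells. The remaining 18 cells are labelled unknown and entered no comparison. The cells not called silent (50 warm-sensitive, cold-sensitive and insensitive cells) are called firing cells here. No label names an animal or slice, so the cells of a class count as 1 sample, no test was possible, and every difference below is a description. Intervals are exact 95% intervals (Clopper-Pearson for shares of cells, Poisson for summed counts) and cover counting error only, since reads without molecular identifiers are not independent molecules.

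The cells held 465167 to 3660726 counts, and the median cell 1279600. More than every other count (53.2%) fell on the ribosomal RNA gene Rn45s. Counts outside it had medians of 415420 in silent sensitive, 362457 in silent insensitive, 314892 in warm-sensitive, 734507 in cold-sensitive and 761928 in insensitive cells. The warm-sensitive cells were therefore the shallowest class, and a typical gene lay lower in them. For this reason differences are read beside the median gene of their comparison. Of 12 neuronal markers, 3 to 12 reached 10 CPM in a given cell, and Snap25 did so in 92 cells. Markers of glia were present as well. Aldoc, the most often found of the astrocyte markers, reached 10 CPM in 77 cells, whereas the astrocyte genes Aqp4, Gfap and Aldh1l1 did so in 6, 5 and 4 cells. Tyrobp, the most often found of the microglial markers, reached it in 52 cells. The other microglial markers lay between 7 cells (Tmem119) and 50 cells (C1qb). Each of the 28 glial markers searched reached 10 CPM in at least 3 cells.

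Gad1 (70553072 to 70602014), Gad2 (22622205 to 22693874) and Slc32a1 (158610767 to 158615748) lie on the plus strand of chromosome 2, and Abat on the plus strand of chromosome 16 (8513429 to 8621568), in build mm10 of the mouse genome with GENCODE M21. They have 21, 16, 2 and 18 merged exons in the order Gad1, Gad2, Slc32a1 and Abat. The antisense gene Gad1os overlaps Gad1 and had counts in 3 cells. The labels do not say whether counting used strand, so reads of the pair cannot be told apart. The bases before the RefSeq starts of the 3 chromosome 2 genes are shown because Gad1 and Gad2 were detected together in many cells, while Slc32a1 was not. They were taken from the RefSeq promoter table of build GRCm38.p6, which was matched for these 3 of the 4 genes. They run 5′ to 3′ on the plus strand, and no GENCODE exon of the same gene begins within them. Those for Gad1 and Gad2 end where such an exon begins, and that for Slc32a1 is the full window of 250 bases. Exons of other genes, such as Gad1os, were not searched for. The Gad1 stretch lies inside the annotated span of the gene, upstream of its RefSeq start. Capitals mark CG dinucleotides, the sites of DNA methylation. The stretches are chr2:70561879-70562041 for Gad1, chr2:22622077-22622204 for Gad2 and chr2:158610508-158610757 for Slc32a1.
Gad1: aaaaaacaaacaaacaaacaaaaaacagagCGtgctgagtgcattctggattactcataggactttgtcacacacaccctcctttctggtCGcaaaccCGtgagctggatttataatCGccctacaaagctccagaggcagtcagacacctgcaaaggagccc
Gad2: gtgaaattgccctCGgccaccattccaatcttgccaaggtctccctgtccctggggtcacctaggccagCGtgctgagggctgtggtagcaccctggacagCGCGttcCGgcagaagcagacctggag
Slc32a1: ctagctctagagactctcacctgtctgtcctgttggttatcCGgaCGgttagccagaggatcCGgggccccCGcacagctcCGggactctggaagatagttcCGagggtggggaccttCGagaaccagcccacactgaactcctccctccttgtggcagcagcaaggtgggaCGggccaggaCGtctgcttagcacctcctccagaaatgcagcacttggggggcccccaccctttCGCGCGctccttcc
The full window of 250 bases before the start holds 17 CG dinucleotides for Gad1, 13 for Gad2 and 12 for Slc32a1, against a median of 6 over 32841 promoters. At least 12 were present in 33.5% of those promoters. Guanine and cytosine made up 58%, 64% and 62.4% of the 3 windows, against a median of 52.4%. The letters TAATT, the core bound by many homeodomain proteins, were searched on both strands and are in none of the 3 windows, against 25% of all promoters. The letters GGGCGG, a GC box, are in the Gad1 window only, outside the stretch shown, against 32.7% of all promoters. These letters were not tied to any measurement in the cells.

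The decarboxylase genes were each found in more than every other cell. Gad1 reached 10 CPM in 53 of 96 cells (55.2%, interval 44.7% to 65.4%) and Gad2 also in 53 cells. Abat reached it in 47 cells (49.0%, interval 38.6% to 59.4%). Slc32a1 reached it in 13 cells (13.5%, interval 7.41% to 22%). Thus the transporter that defines vesicular release of GABA was seen in far fewer cells than the enzymes that make it.

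Levels of the detected genes spread widely among cells. Where detected, Gad1 had a median of 242 CPM and a highest value of 2598 CPM, and it lay above 1000 CPM in 5 cells, between 100 and 1000 CPM in 31 and between 10 and 100 CPM in 17. Gad2 where detected had a median of 348 CPM and a highest value of 3165 CPM. Abat had a median of 174 CPM over its cells and a highest value of 687 CPM. Slc32a1 was lower, with a median of 59.8 CPM over its 13 cells and a highest value of 243 CPM.

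Most cells below 10 CPM were not empty for the decarboxylases. Gad1 had at least 1 count in 90 cells, so 37 of its 43 cells below 10 CPM held some reads, and Gad2 likewise had counts in 90 cells. Slc32a1 had at least 1 count in 39 cells and Abat in 71. The lowest detected and highest undetected cells stood at 10.5 and 9.23 CPM for Gad1, 11.7 and 8.36 CPM for Gad2, 12.7 and 9.84 CPM for Slc32a1, and 16.4 and 7.59 CPM for Abat. A share of cells here is thus a share above a level, not a count of cells that make the RNA.

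Per kilobase of merged exons, the summed level over all cells was 30.2 CPM for Gad1, 57.1 CPM for Gad2, 5.22 CPM for Slc32a1 and 11.7 CPM for Abat. Slc32a1 was the lowest of the 4 with either gene length. The order of the decarboxylases depended on the length used: Gad2 was 1.89 times Gad1 with merged exons and 0.912 times with the longest transcript, because the merged exons of Gad1 span 7639 bases and its longest transcript 3601. Within the 40 cells that held both, the Gad2 to Gad1 ratio per kilobase of merged exons ranged from 0.189 to 13.4 with a median of 1.8. Gad2 was the higher in 31 of these cells with merged exons and in 15 with the longest transcripts. By class, the median ratio with merged exons was 0.836 in 9 silent insensitive cells, 1.69 in 9 warm-sensitive cells and 4.41 in 9 insensitive cells. The balance of the decarboxylases thus varied widely between cells, and it ranged across 1 in each of these classes.

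**Figure D1:**
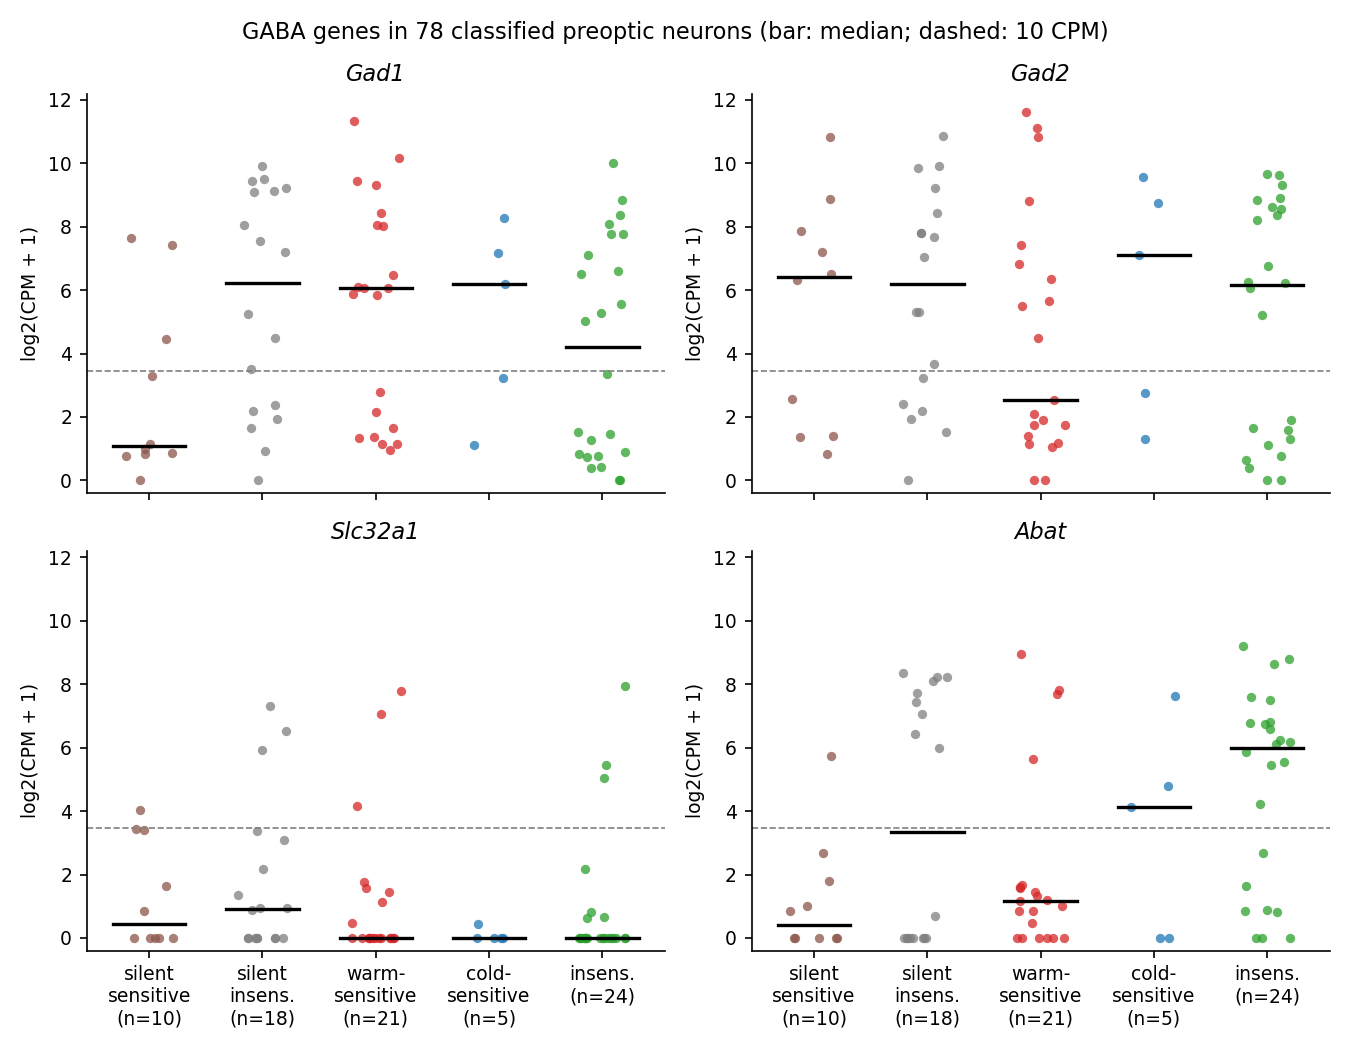
Level of each gene in every classified cell, as log2(CPM + 1) on the vertical axis, by temperature class on the horizontal axis; each point is 1 cell, the bar is the median of the points and the dashed line is 10 CPM. Every class overlaps every other for each gene, Slc32a1 lies at 0 in most cells, and most silent sensitive and warm-sensitive cells lie below the line for Abat.

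Gad1 and Gad2 were mostly found in the same cells. Both reached 10 CPM in 40 cells, Gad1 alone of the pair in 13, Gad2 alone in 13, and at least 1 of them in 66 cells. Gad2 was detected in 75.5% of Gad1 cells (40 of 53, interval 61.7% to 86.2%) and in 30.2% of the other cells (13 of 43). The Pearson correlation of their log2(CPM + 1) values over the 96 cells was 0.51. Among 4788 genes detected in at least 15 cells, Gad1 was the gene most like Gad2, and Gad2 the second most like Gad1 after Rasgrf1 (0.56), a guanine nucleotide exchange factor for Ras. Sf3a1, a splicing factor gene, followed for Gad1 (0.42), and the cell adhesion gene Alcam (0.45) and Dnajc27 (0.44) for Gad2. These correlations are descriptions over cells that share libraries of unequal depth.

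Slc32a1 was found almost only beside a decarboxylase gene. Of its 13 cells, 12 held Gad1 or Gad2, and 9 held all 4 genes. In the remaining cell, warm-sensitive cell 15, it had 16.8 CPM beside 5.94 CPM of Gad1 and no Gad2 count. In the 12 cells the summed level of Gad1 and Gad2 per kilobase was 0.406 to 46.6 times that of Slc32a1, with a median of 8.08. Slc35f1 (0.51), Csmd1 (0.50) and Gabrg1 (0.49), the last a subunit gene of the GABA-A receptor, had the highest correlations with Slc32a1 over the 96 cells.

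Abat did not follow the synthesis genes. It reached 10 CPM in 32 of 66 cells with a decarboxylase gene (48.5%, interval 36.0% to 61.1%) and in 15 of 30 cells without one (50%, interval 31.3% to 68.7%). Its correlation with Gad1 was 0.05 and with Gad2 0.13, which ranked Gad1 4124th and Gad2 2966th of 4788 genes. The genes most like it were Uba1 (0.55), which activates ubiquitin, the phosphatase gene Ppm1a (0.50) and the kinase gene Matk (0.49). Depth moved with Abat more than with the other members: its correlation with the log10 count outside Rn45s was 0.34, against 0.16 for Gad1, 0.27 for Gad2 and 0.17 for Slc32a1. The part of depth in these correlations was not tested.

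**Figure D2:**
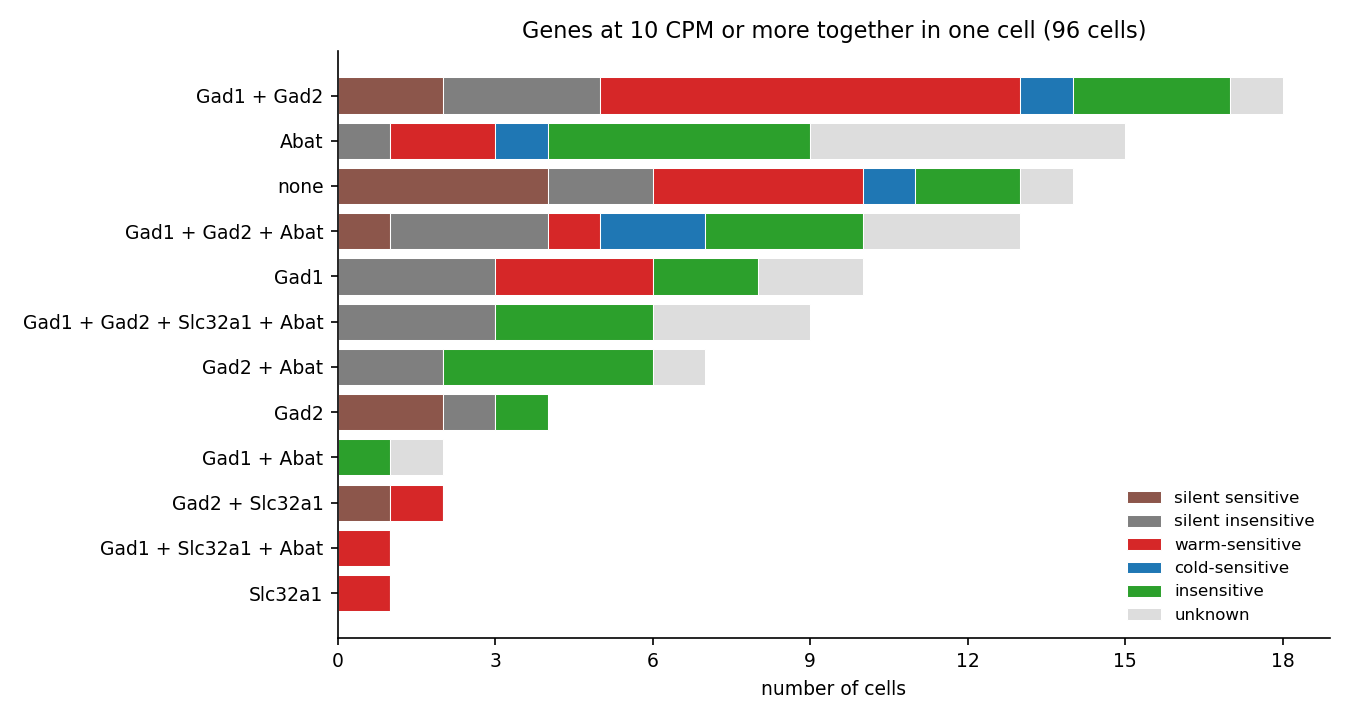
Number of the 96 cells (horizontal axis) with each combination of the 4 genes at 10 CPM or more (vertical axis), coloured by temperature class, with the cells labelled unknown in light grey. The pair of decarboxylase genes without the other members is the commonest combination (18 cells), and the combination of all 4 genes holds no cell of the 3 sensitive classes.

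The glutamate transporter Slc17a6, a marker of neurons that release glutamate, tended to lie apart from Gad1 more than from Gad2. It reached 10 CPM in 35 cells, whereas its relatives Slc17a7 and Slc17a8 reached it in 0 cells each, which allows a share of up to 3.13% by the limit of 3 counts of the total and of up to 3.77% by the exact interval. Slc17a6 was detected in 11 of 53 Gad1 cells (20.8%, interval 10.8% to 34.1%) and in 24 of the 43 cells below 10 CPM of Gad1. It was detected in 16 of 53 Gad2 cells (30.2%, interval 18.3% to 44.3%). Among cells with only 1 of the decarboxylases, it was present in 8 of 13 with Gad2 alone and in 3 of 13 with Gad1 alone. Of all 4788 genes, Slc17a6 had the lowest correlation with Gad1 (-0.45), and it also had the lowest with Slc32a1 (-0.28).

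A decarboxylase gene and the glutamate transporter were found together in 19 cells. Of these, 8 held both decarboxylase genes, 8 held Gad2 alone and 3 held Gad1 alone. Slc17a6 exceeded both decarboxylases in CPM in 7 of the 19. Insensitive cell 4 held 474 CPM of Gad2 beside 377 CPM of Slc17a6 and no Gad1 count, and insensitive cell 7 held 326 CPM of Gad2 beside 324 CPM of Slc17a6. Slc32a1 and Slc17a6 met in 2 cells, among them warm-sensitive cell 6 with 134 CPM of Slc32a1, 131 CPM of Slc17a6 and 113 CPM of Gad2. The share of cells with both kinds of gene depended on the detection level: it was 19.8% at 10 CPM, 37.9% in cells thinned to 100000 counts outside Rn45s and 67.7% at 1 count.

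**Figure D3:**
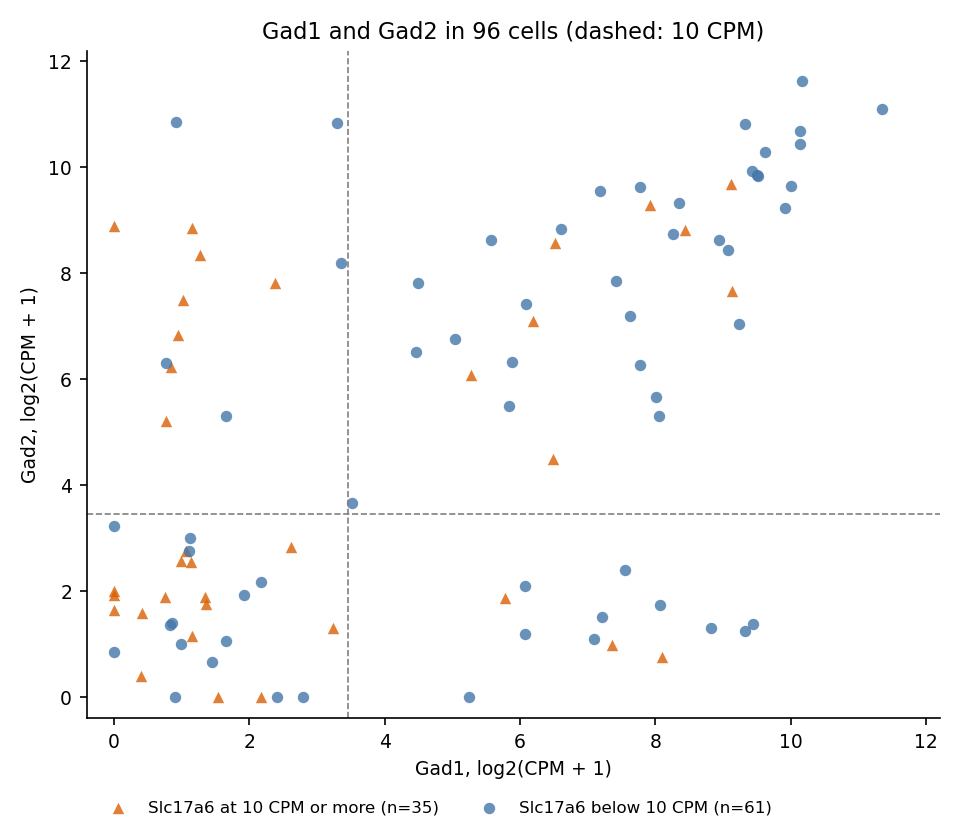
Gad1 (horizontal axis) against Gad2 (vertical axis) as log2(CPM + 1) in all 96 cells; orange triangles are the 35 cells with Slc17a6 at 10 CPM or more, blue circles the other 61, and dashed lines mark 10 CPM. Of the 13 cells at upper left, with Gad2 but little Gad1, 8 are triangles, against 3 of the 13 at lower right.

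Among silent cells, a decarboxylase gene was common in both classes, and its share was the highest of the 5 classes in silent insensitive cells. Gad1 or Gad2 was found in 6 of 10 silent sensitive cells and in 15 of 18 silent insensitive cells (83.3%, interval 58.6% to 96.4%). Slc17a6 without a decarboxylase gene was found in 1 silent sensitive cell and in 0 of the 18 silent insensitive cells, which allows a share of up to 16.7% by the limit of 3 counts and of up to 18.5% by the exact interval. All 4 genes were found together in 0 silent sensitive cells and in 3 silent insensitive cells.

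Gad1 had the largest mean log2 difference of the 4 genes between the silent classes, whereas the gap in share of cells was larger for Abat (-40 percentage points) than for Gad1 (-36.7). Its lowest, median and highest levels were 0, 1.11 and 197 CPM in silent sensitive cells, against 0, 92.1 and 963 CPM in silent insensitive cells. It reached 10 CPM in 3 of 10 silent sensitive cells (30%, interval 6.67% to 65.2%) and in 12 of 18 silent insensitive cells (66.7%, interval 41.0% to 86.7%). The ranges overlapped, and levels above 197 CPM were found in silent insensitive cells only. With each cell thinned to 100000 counts outside Rn45s, where 1 count amounts to 10 CPM of the thinned total, Gad1 was detected in 5 of 10 silent sensitive and in 15 of 18 silent insensitive cells.

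The mean of log2(CPM + 1) for Gad1 was 2.74 ± 2.85 in silent sensitive cells and 5.64 ± 3.50 in silent insensitive cells (SD over 10 and 18 cells), a difference of -2.89. A gene was eligible for a comparison when at least 25% and at least 3 of the cells of either class held 10 CPM, and it was called when the difference was at least 1 in size. By this rule 38.7% of 3459 eligible genes were called lower and 10.4% higher in silent sensitive cells, and with DESeq2 size factors these were 21.9% and 28.1%. The median eligible gene stood at -0.65. Relative to it, Gad1 was at -2.24, in a comparison where 18% of eligible genes were lower by at least 1 and 23% higher after the median was subtracted. Over all eligible genes, 1.42% had a lower difference than Gad1. Within the letters of the cells' titles, a grouping whose meaning the labels do not give, the difference was -3.92.

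Gad2 did not follow Gad1 here. Its lowest, median and highest levels were 0.796, 84.3 and 1817 CPM in silent sensitive cells, against 0, 85.2 and 1841 CPM in silent insensitive cells, an almost equal spread. Its difference was -0.41, which is 0.24 above the median eligible gene. All 3 silent sensitive Gad1 cells also held Gad2, and 3 more held Gad2 without Gad1.

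Slc32a1 reached 10 CPM in 1 of 10 silent sensitive cells, at 15.5 CPM, and in 3 of 18 silent insensitive cells, at 59.8, 91.5 and 158 CPM. It was in too few cells to be eligible in any comparison, and at this number of cells a difference in its share was not detectable.

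Abat was lower in silent sensitive cells. Its lowest, median and highest levels were 0, 0.393 and 52.0 CPM in silent sensitive cells, against 0, 31.5 and 324 CPM in silent insensitive cells. Only silent sensitive cell 4 passed 10 CPM, against 9 of 18 silent insensitive cells (50%, interval 26.0% to 74.0%). The difference was -2.59, or -1.94 relative to the median eligible gene, and 2.75% of eligible genes had a lower one. Within title letters it was -3.22. In thinned cells Abat was detected in 2 of 10 silent sensitive and in 10 of 18 silent insensitive cells.

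**Figure D4:**
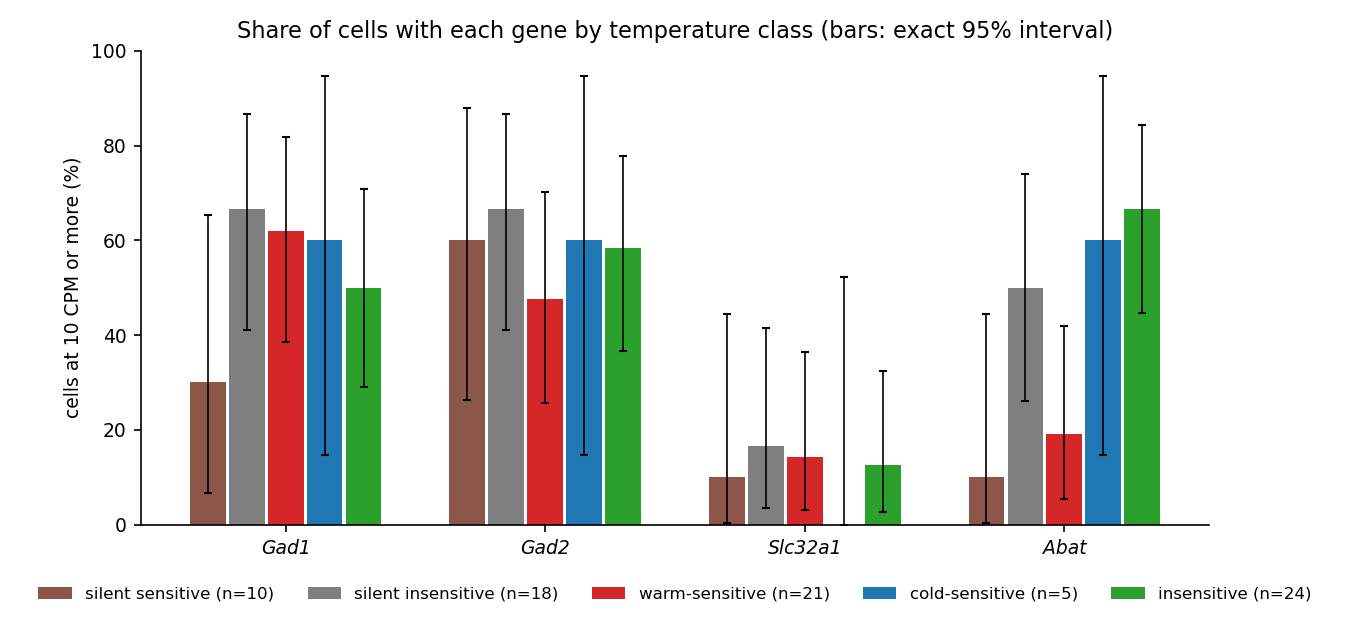
Percentage of cells at 10 CPM or more (vertical axis, from 0) for each gene (horizontal axis), with a bar for each temperature class and lines for exact 95% intervals of counting error. Gad1 is lowest in silent sensitive cells (30%), Gad2 lies between 47.6% and 66.7% in every class, and Abat is found in 10% of silent sensitive and 19% of warm-sensitive cells against 50% of silent insensitive and 66.7% of insensitive cells.

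On average over cells, Gad1 was higher and Abat lower in warm-sensitive than in insensitive cells. For Gad1 the lowest, median and highest levels were 0.928, 66.1 and 2598 CPM in warm-sensitive cells, against 0, 20.6 and 1022 CPM in insensitive cells. It reached 10 CPM in 13 of 21 warm-sensitive cells (61.9%, interval 38.4% to 81.9%) and in 12 of 24 insensitive cells (50%, interval 29.1% to 70.9%). These ranges and intervals overlapped almost wholly.

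The Gad1 difference was 1.31 on the log2(CPM + 1) scale, in a comparison where 67.6% of 4601 eligible genes were called lower and 0.522% higher in warm-sensitive cells (34.2% and 6.48% with DESeq2 size factors). The median eligible gene stood at -1.36, so Gad1 lay 2.67 above it. After the median was subtracted, 13% of eligible genes were lower by at least 1 and 10% higher, and 99.8% had a lower difference than Gad1. Summed over cells, Gad1 was 340 CPM in warm-sensitive and 124 CPM in insensitive cells. Warm-sensitive cell 12 gave 36.4% of the Gad1 counts of its class, and the sum without it was 227 CPM. The difference was 2.82 with DESeq2 size factors and 0.89 within title letters, the second of which is below the size used for a call.

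Gad2 in warm-sensitive cells was uneven. Its lowest, median and highest levels were 0, 4.86 and 3165 CPM in warm-sensitive cells, against 0, 70.1 and 803 CPM in insensitive cells. It reached 10 CPM in 10 of 21 warm-sensitive cells and in 14 of 24 insensitive cells. The median was thus below 10 CPM in warm-sensitive cells although the 2 highest Gad2 cells of the study were among them.

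The mean Gad2 difference of -0.55 and the sums went opposite ways: the sum was 477 CPM in warm-sensitive and 203 CPM in insensitive cells. Warm-sensitive cell 2 alone gave 49.9% of the class's Gad2 counts, and without it the sum was 258 CPM. Relative to the median eligible gene, Gad2 was 0.81 higher in warm-sensitive cells. No direction can therefore be given for Gad2 in this comparison.

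Slc32a1 reached 10 CPM in 3 of 21 warm-sensitive cells (16.8, 134 and 218 CPM) and in 3 of 24 insensitive cells (32.1, 42.7 and 243 CPM). None of the 3 warm-sensitive cells held both decarboxylases, whereas all 3 insensitive cells did, with Abat as well.

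Abat was found in 4 of 21 warm-sensitive cells (19%, interval 5.45% to 41.9%) and in 16 of 24 insensitive cells (66.7%, interval 44.7% to 84.4%). Its lowest, median and highest levels were 0, 1.23 and 498 CPM in warm-sensitive cells, against 0, 62.9 and 587 CPM in insensitive cells. The levels of single cells overlapped. The 2 share intervals did not, but they cover counting error only and leave out the unequal depth of the classes.

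The Abat difference was -2.74, or -1.38 relative to the median eligible gene, and 6.32% of eligible genes had a lower one. With DESeq2 size factors it was -1.64. By share of cells, 3.11% of eligible genes were at least as much lower in warm-sensitive cells. Within title letters the difference was -2.44. In thinned cells Abat was detected in 8 of 20 warm-sensitive and in 17 of 24 insensitive cells. As a ratio of summed counts it was -0.94 on the log2 scale, since 4 warm-sensitive cells with a median of 214 CPM carried a sum of 49.9 CPM, against 95.7 CPM in insensitive cells.

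**Figure D5:**
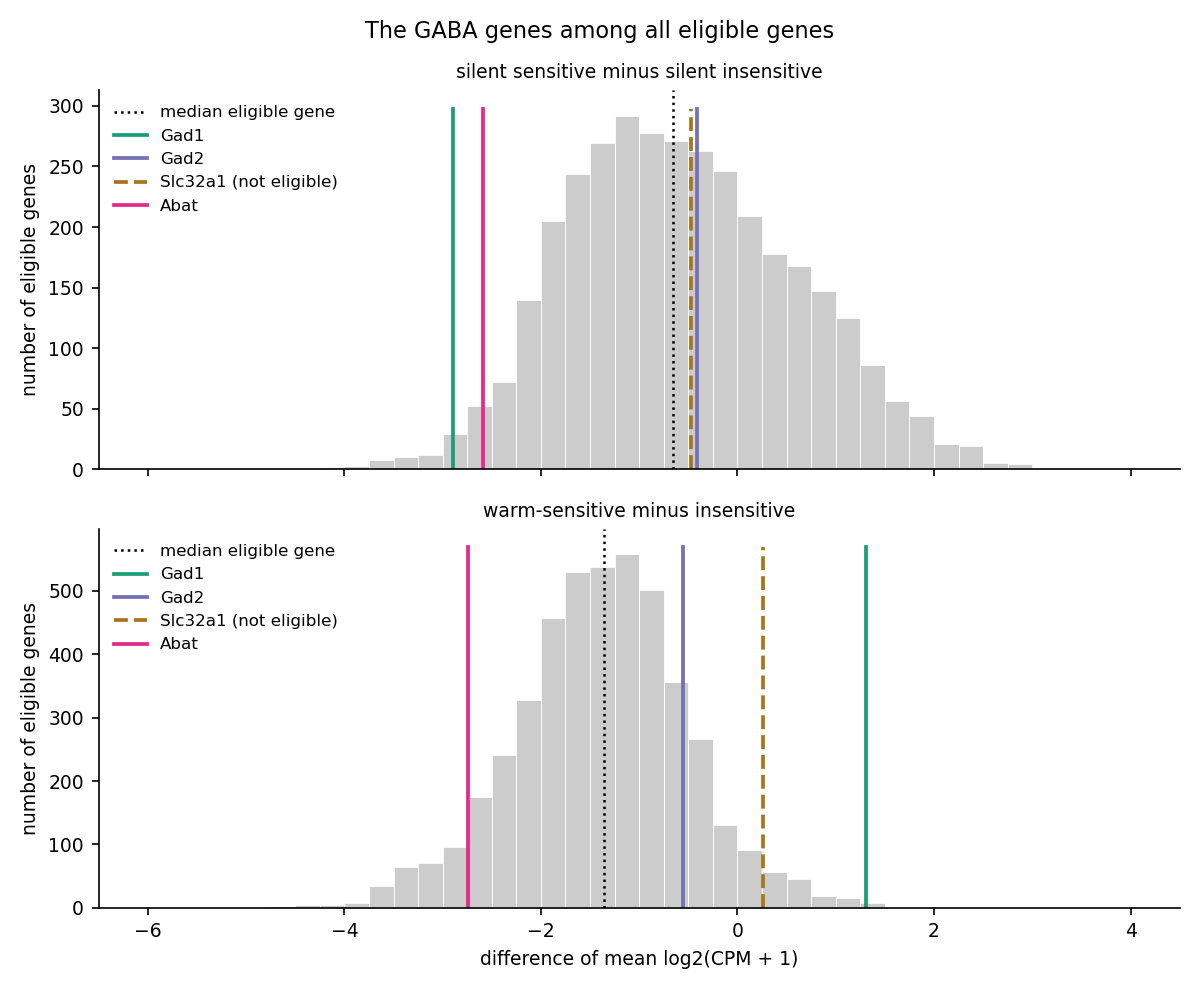
Number of eligible genes (vertical axis) by their difference of mean log2(CPM + 1) (horizontal axis) for silent sensitive minus silent insensitive cells (top) and warm-sensitive minus insensitive cells (bottom), with the 4 genes as coloured lines, dashed where not eligible, and the median eligible gene dotted. Abat lies in the lower tail of both panels, whereas Gad1 is at -2.89 in the top panel and at 1.31 in the bottom one.

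The cold-sensitive class has 5 cells, and every statement on it rests on single cells. Gad1 was 72.2, 144, 8.40, 1.16 and 307 CPM in cold-sensitive cells 1 to 5, and Gad2 was 135, 754, 1.46, 5.78 and 429 CPM in the same cells. The same 3 cells held both decarboxylases, and the other 2 held neither. Slc32a1 was 0.365 CPM in 1 cell and 0 in the other 4. Abat was 16.4, 26.6 and 199 CPM in cells 2, 4 and 5 and 0 in cells 1 and 3.

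Against insensitive cells, Gad1 was 1.09 higher in cold-sensitive cells, Gad2 0.89 higher, Slc32a1 at -0.86 and Abat at -1.49, with 35.4% of 4644 eligible genes called lower and 13.9% higher (29.3% and 18.5% with edgeR's TMM library sizes). The median eligible gene stood at -0.52, and after it was subtracted 21.2% were lower by at least 1 and 22.8% higher, among them Gad1 (1.61) and Gad2 (1.41). Abat stood at -0.97 relative to that gene, below the size for a call. The Gad1 value was 0.59 without cold-sensitive cell 2, 0.32 without cell 5 and 2.11 without cell 4, and as summed counts it reversed (-0.23). The Abat value was -2.57 without cold-sensitive cell 5 and -0.66 without cell 1 or cell 3. Abat reached 10 CPM in 3 of 5 cold-sensitive cells, and cold-sensitive cell 5 carried 83.2% of its counts.

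Warm-sensitive minus cold-sensitive cells gave 0.22 for Gad1, -1.44 for Gad2, 1.12 for Slc32a1 and -1.25 for Abat, with 62.6% of 2199 eligible genes called lower and 7.37% higher in warm-sensitive cells (38.8% and 19.5% with DESeq2 size factors). The median eligible gene stood at -1.56. Relative to it, Gad2 was 0.11 and Abat 0.30 higher in warm-sensitive cells, so neither has a direction here, whereas Gad1 was 1.78 higher, among 29.2% of eligible genes that were higher by at least 1 and 26.2% that were lower. Leaving out cold-sensitive cell 2 or 5 gave -0.53 or -0.73 for Gad2, leaving out cell 3 or 4 gave -2.59 or -2.23, and Abat was -0.17 without cell 5 and -2.08 without cell 1 or cell 3.

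Between silent and firing cells none of the 4 genes reached the size for a call. Gad1 was found in 15 of 28 silent cells and in 28 of 50 firing cells, Gad2 in 18 silent and 27 firing cells, Slc32a1 in 4 silent and 6 firing cells, and Abat in 10 silent and 23 firing cells. Their differences were -0.17, 0.78, 0.67 and -0.63, set against a size of 1 for a call, which 15.3% of 3481 eligible genes met as lower and 2.73% as higher in silent cells (11.3% and 7.29% with DESeq2 size factors). The median eligible gene stood at -0.29, and relative to it Gad2 was 1.08 higher, among 7.9% of eligible genes higher by at least 1 and 7.56% lower. Under alternatives the size of 1 was passed by Gad2 (up to 1.36 within title letters), by Slc32a1 (1.36) and by Abat (-1.32), the last pair with a pseudocount of 0.1 CPM. Slc17a6 was lower in silent cells (-2.14, or -1.84 relative to the median eligible gene), at 10 CPM in 4 of 28 silent cells (14.3%, interval 4.03% to 32.7%) and in 22 of 50 firing cells (44.0%, interval 30% to 58.7%). Of all eligible genes, 0.287% had a lower difference.

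Pooling the 3 sensitive classes against both insensitive classes left Abat as the member that differed. These pooled values share their cells with the comparisons above. Abat reached 10 CPM in 8 of 36 sensitive cells (22.2%, interval 10.1% to 39.2%) and in 25 of 42 insensitive cells (59.5%, interval 43.3% to 74.4%). The difference was -2.37, or -1.39 relative to the median eligible gene, where 48.6% of 3733 eligible genes were called lower and 0.241% higher in sensitive cells (16.3% and 5.31% with DESeq2 size factors). After the median (-0.98) was subtracted, 6.56% were lower by at least 1 and 7.47% higher. A gap in share as low as that of Abat (-37.3 percentage points) was met by 54 eligible genes (1.45%). Within title letters the difference was -2.48, and with DESeq2 size factors it was -1.54. The cold-sensitive class showed little of this gap in share: Abat reached 10 CPM in 3 of 5 of its cells and in 16 of 24 of the insensitive class. That gap was -6.67 percentage points, where the median eligible gene stood at -7.5. The mean difference of that class was -1.49, or -0.97 relative to the median eligible gene.

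The lower Abat share held within cells that had the synthesis genes. With a decarboxylase gene present, Abat was detected in 5 of 23 sensitive cells (21.7%, interval 7.46% to 43.7%) and in 19 of 32 insensitive cells (59.4%, interval 40.6% to 76.3%). With neither, it was detected in 3 of 13 sensitive and in 6 of 10 insensitive cells. All 4 genes were found together in 0 of 36 sensitive cells, which allows a share of up to 8.33% by the limit of 3 counts and of up to 9.74% by the exact interval, and in 6 of 42 insensitive cells. That 0 depends on the level of 10 CPM. Silent sensitive cell 3 held 197 CPM of Gad1, 145 CPM of Gad2, 9.84 CPM of Slc32a1 and 5.37 CPM of Abat.

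Depth moved with the Abat result. Above the median of 524176 counts outside Rn45s, Abat was detected in 5 of 13 sensitive and in 20 of 26 insensitive cells, and at or below it in 3 of 23 sensitive and in 5 of 16 insensitive cells. The sensitive share was the lower on both sides of that depth, and the gap was narrower among shallow cells. In the warm-sensitive comparison the shallow cells included 2 of 16 warm-sensitive and 1 of 5 insensitive cells with Abat, so the gap there rested on the deep cells (2 of 5 warm-sensitive and 15 of 19 insensitive cells). With each cell thinned to 100000 counts outside Rn45s, the pooled difference was -2.56. The split by depth was added after seeing the data, and the part of depth in the Abat result was not tested.

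The summed level of astrocyte markers was lower in sensitive cells, as Abat was, and so was that of neuronal markers. The median eligible gene also stood lower in them (-0.98). Microglial and oligodendrocyte markers were not lower. The part of these markers in the result was not tested. The summed level of the 10 astrocyte markers had a median of 644 CPM in sensitive cells (range 1.27 to 4795 CPM) and of 923 CPM in insensitive cells (range 2.65 to 5144 CPM). It was 1125 CPM in the 47 cells with Abat and 592 CPM in the 49 cells below 10 CPM of Abat. The median number of astrocyte markers at 10 CPM was 2 in sensitive and in insensitive cells alike. The 10 microglial markers had medians of 954 CPM in sensitive and 598 CPM in insensitive cells, and the 8 oligodendrocyte markers medians of 177 CPM in sensitive and 166 CPM in insensitive cells. The 12 neuronal markers also differed, with medians of 2290 CPM in sensitive and 3741 CPM in insensitive cells.

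Gad1, Gad2 and Slc32a1 had no such pooled difference. Gad1 was found in 19 of 36 sensitive and in 24 of 42 insensitive cells (-0.12), Gad2 in 19 sensitive and 26 insensitive cells (-0.43), and Slc32a1 in 4 sensitive and 6 insensitive cells (-0.22). Relative to the median eligible gene all 3 were higher in sensitive cells, by 0.86, 0.55 and 0.75. For Gad1 the pooled value covers opposite signs: -2.89 for silent sensitive minus silent insensitive cells and 1.31 for warm-sensitive minus insensitive cells, a contrast that was not tested.

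The wider pathway was read from a list of 24 genes, most of them genes of GABA and glutamate metabolism and transport. The list also holds the taurine genes Slc6a6, Csad and Gadl1. Ywhae, Rab3a, Dnajc5 and Hspa8, also listed, have general roles that are not particular to GABA or glutamate. Of the 24 genes, 13 to 16 were eligible outside the comparison of the 2 firing sensitive classes, where 11 were. Between warm-sensitive and insensitive cells 9 of 16 were called lower and 0 higher in warm-sensitive cells, where 67.6% of all eligible genes were lower and 0.522% higher, with a median of -1.25 against -1.36 for all eligible genes, a list median close to that of all eligible genes. Dnajc5, a chaperone of synaptic vesicles, was at -2.78 (-1.41 relative to the median eligible gene), the vesicle GTPase gene Rab3a at -2.38 (-1.01 relative to it) and Ogdh, an enzyme of the citric acid cycle, at -1.72 (-0.36 relative to it).

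Between the silent classes 3 of 14 eligible genes of the list were called lower and 4 higher in silent sensitive cells. Of all eligible genes 38.7% were lower and 10.4% higher. The median was -0.10 for the list, against -0.65 for all eligible genes. Dnajc5 was at -2.90 (1 of 10 silent sensitive and 10 of 18 silent insensitive cells), Ogdh at -2.13 and Ywhae, a 14-3-3 protein gene, at -1.60. Of the 4 higher genes, Glud1, which interconverts glutamate and 2-oxoglutarate, was at 1.13, and the others are not named here. The list's median lay above that of all eligible genes, so the 3 lower genes do not stand for the list. In the pooled comparison 6 of 13 were lower and 0 higher in sensitive cells, against 48.6% and 0.241% of all eligible genes. The list's median was -0.55 against -0.98, and Dnajc5 was again the lowest at -2.33 (-1.35 relative to the median eligible gene).

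In cold-sensitive against insensitive cells 4 of 16 eligible genes of the list were lower and 3 higher, where 35.4% and 13.9% of all eligible genes were. In warm-sensitive against cold-sensitive cells 6 of 11 were lower and 1 higher, where 62.6% and 7.37% of all eligible genes were. In silent against firing cells 3 of 13 were lower and 0 higher, where 15.3% and 2.73% of all eligible genes were. Of the step after Abat, Aldh5a1, which oxidises the product of GABA transaminase, was found in 13 of 96 cells and was not eligible in the comparisons of warm-sensitive or silent sensitive cells.

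Genes known to mark GABA neurons, all transcription factor genes except the noncoding RNA gene Dlx6os1, were rare at this depth. Of 16 such genes, none reached 10 CPM in 25% of the 96 cells, and Dlx1, the most often found of its family, reached it in 9 cells. Only Six3 (19 cells) and Isl1 (17 cells), named here after their values were seen, were eligible in any comparison. Isl1 reached 10 CPM in 1 of 21 warm-sensitive cells and in 10 of 24 insensitive cells (-2.53, or -1.17 relative to the median eligible gene at -1.36). Six3 reached it in 3 warm-sensitive and 7 insensitive cells and has no direction, since its difference was -0.96 and lay 0.40 above that gene.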

How the data were processed

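Per the labels, RNA was sequenced from 96 single preoptic neurons that had been patch-clamped. The authors deposited raw counts (whole numbers per gene in each cell) and a normalized signal table. In the deposited signal the counts of a cell were scaled by its total and 1 further factor (0.402 to 5.64 over cells), of which the labels say nothing. Per the submitters' processing notes, the tools were FastQC, STAR and edgeR and the genome was mm10; no version is named.

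Counts were divided by the cell total, Rn45s included, and scaled to 1000000 (CPM). No 2 cells held identical counts, and no cell was left out. Detection was at 10 CPM. Differences compare class means of log2(CPM + 1), a scale that shrinks changes of low genes. Intervals are exact at 95%. The normalized signal and the edgeR and DESeq2 scalings were alternatives only. Only the direction of differences in mean log2(CPM + 1) was tested on simulated data, with changes planted in often detected genes. Shares of cells, co-detection and correlations were not tested in this way.

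The text names the 4 genes, the Slc17a transporters, genes of a GABA pathway list (24 genes) and a GABAergic identity list (16 genes) at 10 CPM in at least 25% of cells, cell type markers, and the 3 genes with the highest correlation with each member among genes at 10 CPM in at least 15 cells. Aldh5a1, Dlx1, Six3, Isl1 and the single cells named fall outside this rule and were chosen after their values were seen. Members and lists were chosen with earlier results of these data known. The split by depth, co-detection without the cells labelled unknown and equal weight for silent and firing cells were added after seeing the data. R 4.3.3 ran DESeq2 1.42.0 and edgeR 4.0.16, and Python 3.11.15 ran scipy 1.17.1, pandas 2.3.3, numpy 2.4.6 and matplotlib 3.10.9. Coordinates are from GENCODE M21 on mm10 and promoter sequences from RefSeq on GRCm38.p6 (3 of 4 genes matched). The results of some listed genes are not reported here.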

Additional observations from a re-analysis of the deposited data

Results flagged for a closer look

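Abat in silent sensitive cell 4 was 52.0 CPM, far above the other 9 cells of its class, and that cell gave 86.9% of the class's Abat counts. The summed Abat level of silent sensitive cells was 6.55 CPM with it and 0.963 CPM without it. The rule behind this mark would flag about 1 in 20 groups by chance if values were normally distributed. Abat had 0 counts in 5 of these 10 cells, so that rate need not hold here.

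The 18 cells labelled unknown, which entered no comparison, also held the genes. Gad1 reached 10 CPM in 10 of them, Gad2 in 8 and Abat in 14.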

How the results depend on the processing

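Of the values recomputed under the alternatives, 392 moved by less than 1 SD over cells or stayed within the exact interval. A further 22 moved more, and 6 changed sign. For differences under 1 in size the sign was not checked, so the 392 include values whose sign changed. Differences under 1 in size are not among the 6: of 14 such differences between classes, 11 took both signs over the alternatives, among them Gad1 in warm-sensitive minus cold-sensitive cells (-0.86 to 1.78) and in the pooled comparison (-0.81 to 0.86) and Gad2 in warm-sensitive minus insensitive cells (-1.32 to 1.23), so they have no direction. Over the alternatives, the Abat difference was -2.89 to -1.39 for sensitive minus insensitive cells, -3.52 to -0.94 for warm-sensitive minus insensitive cells and -3.97 to -1.76 for silent sensitive minus silent insensitive cells. The Gad1 difference was -3.92 to -1.95 between the silent classes and 0.82 to 2.82 for warm-sensitive minus insensitive cells. The sign changed for Gad1 in cold-sensitive minus insensitive cells with summed counts (-0.23), for Gad2 in warm-sensitive minus cold-sensitive cells relative to the median eligible gene (0.11) and with summed counts (0.68), and for Abat in the same comparison (0.30 and 0.29 under the same settings). The Gad2 to Gad1 ratio per kilobase fell below 1 with the longest transcripts (0.912). Leaving out 1 cell moved a called difference by over 1.5 times only in comparisons with the 5 cold-sensitive cells. At 1 count, 87.5% of cells held both decarboxylases, 100% either, 29.2% all 4 genes, 40.6% Slc32a1 and 67.7% a decarboxylase with Slc17a6. Likewise 93.3% of Gad1 cells held Gad2, 67.8% Slc17a6 and 74.4% Abat, and 67.8% of Gad2 cells held Slc17a6. At 5 counts 79.2% held a decarboxylase, with totals without Rn45s 81.25%, and at 50 CPM 31.25% held both. In cells thinned to 100000 counts outside Rn45s, 57.9% held both decarboxylases, 86.3% either and 37.9% a decarboxylase with Slc17a6, which was in 36.8% of Gad1 and 44.9% of Gad2 cells. With the median of detected cells the ratios per kilobase were 1.86 for Gad2, 0.673 for Slc32a1 and 0.707 for Abat over Gad1, and with the longest transcripts 0.0815 for Slc32a1 and 0.305 for Abat. The cause was not tested. With DESeq2 size factors the median eligible gene stood at -0.65 for warm-sensitive minus insensitive cells, -0.31 for the pooled comparison and 0.15 between the silent classes. The calls were then 1401 lower and 265 higher, against 3112 and 24, in warm-sensitive minus insensitive cells, and 559 lower and 182 higher, against 1816 and 9, in the pooled one. No paired analysis was possible because no label ties the numbers of cells across classes and no result comes from a test. Cells of few counts limit detection, and 1 cell had under 100000 counts outside Rn45s.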

Other observations

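In the 18 cells labelled unknown, the lowest, median and highest levels were 0, 109 and 1124 CPM for Gad1, 0, 6.63 and 1640 CPM for Gad2, 0, 0 and 95.9 CPM for Slc32a1, and 0, 166 and 687 CPM for Abat. Slc32a1 reached 10 CPM in 3 of these cells, each of which held all 4 genes. Abat without the other members was their commonest combination, with 6 cells. Slc17a6 reached 10 CPM in 9 of them.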
